A study of Mus musculus with 6 samples.

Results

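The colony-stimulating factors are the cytokines by which macrophages, granulocytes and their precursors are kept alive and made to divide, and the genes described here encode their receptors with 1 of the ligands. The 8 genes are Csf1, which encodes the ligand CSF-1 (M-CSF), and 7 receptor genes. Of these, Csf1r, Flt3 and Kit encode tyrosine kinases of 1 structural family, Csf2ra, Csf2rb and Csf2rb2 encode chains of the receptors for GM-CSF and IL-3, and Csf3r encodes the receptor for G-CSF. They were found by symbol among the 21965 genes of the count table, and all 8 were among the 12305 genes with enough counts to be tested.

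The counts came from polyA RNA sequencing of lung interstitial macrophages, the macrophages of the lung wall, which were sorted with fluorescent antibodies from digested lungs of C57Bl/6 mice aged 6 to 8 weeks at injection. WGP, a beta-glucan named in the series as an agent that trains macrophages, or PBS alone was given into the peritoneum, with a WGP dose of 1 mg, a stated treatment of 6 days and lungs taken on day 7. Each group had 3 libraries, and the labels call both groups controls and name no transgene, deletion or tumour. Neither the number of mice behind each library nor the antibodies of the gate are given, so the p-values refer to the spread among libraries, part of which may be technical.

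CSF-1 and IL-34 bind the receptor CSF1R on macrophages and monocytes, and the signal passes through the receptor's own kinase to the PI3 kinase, PLC-gamma and MAP kinase routes. GM-CSF and IL-3 each bind their own alpha chain, which then joins a beta chain that carries the kinase JAK2, and STAT5 is the main factor it activates. Mice have an extra beta chain gene, Csf2rb2, whose product pairs only with the IL-3 alpha chain, while the product of Csf2rb is shared by GM-CSF, IL-3 and IL-5. In the lung, GM-CSF is known for setting the alveolar macrophage state, and CSF1R signalling for the survival of macrophages in the tissue. KIT is best known on mast cells and blood cell precursors, and FLT3 on dendritic cells and their precursors.

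The pair of beta chain genes is shown first, because their likeness bears on how counts can be divided between them. Csf2rb (ENSMUSG00000071713) lies on the plus strand at chr15:78325752-78353847 of GRCm38, and Csf2rb2 (ENSMUSG00000071714) on the minus strand at chr15:78282507-78305721, 20030 bases away. In the GENCODE M21 transcripts each coding region has 13 exons, with 2688 coding bases in Csf2rb and 2634 in Csf2rb2. Of 2628 aligned coding bases 2503 were identical (95.2%), and identity by exon ran from 87.9% to 99%. The most alike and the least alike coding exon are printed below, 5′ to 3′ on the coding strand, with the bases that differ between the genes in capitals. In the most alike exon, the twelfth, 1 base of 104 differs.
Csf2rb exon 12, chr15:78347374-78347477, plus strand: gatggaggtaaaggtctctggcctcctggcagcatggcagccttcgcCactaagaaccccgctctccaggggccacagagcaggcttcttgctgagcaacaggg
Csf2rb2 exon 12, chr15:78285980-78286083, minus strand: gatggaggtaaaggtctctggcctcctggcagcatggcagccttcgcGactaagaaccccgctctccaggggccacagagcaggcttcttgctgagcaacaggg
In the least alike exon, the tenth, 11 bases of 91 differ.
Csf2rb exon 10, chr15:78346383-78346473, plus strand: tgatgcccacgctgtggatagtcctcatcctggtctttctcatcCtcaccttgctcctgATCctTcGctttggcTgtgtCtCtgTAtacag
Csf2rb2 exon 10, chr15:78286973-78287063, minus strand: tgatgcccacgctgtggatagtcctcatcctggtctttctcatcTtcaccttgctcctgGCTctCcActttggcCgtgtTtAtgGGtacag

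The longest stretch without a difference was 242 bases. Of all 50-base windows of the Csf2rb transcript 18.9% also occurred in Csf2rb2, and of all 100-base windows 7.16%. A read that lies wholly in such a window could have come from either gene, so the counts of these genes are less certain than those of the other 6.

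Levels are given as CPM, counts scaled to the TMM-normalised size of the library, and the depth was 18254678 to 20346517 counts per library. Each of the 8 genes had 37 to 55713 counts in a library, so that counting error is small for every gene but Kit. Of all genes tested 31.0% passed an adjusted p of 0.05 between WGP and PBS by the edgeR quasi-likelihood test with Benjamini-Hochberg adjustment. Of the 8 genes 2 passed, 1 in each direction: Csf1r was higher after WGP and Kit was lower. The other 6 did not pass. The share of all genes that passed was 15.2% higher and 15.7% lower, so the count of 2 in 8 does not stand above the background. The median log2 fold change was -0.02 for the 8 genes and -0.02 for all genes tested.

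The sorted cells had macrophage transcripts in every library: C1qa, a complement gene of tissue macrophages, measured 453 to 556 CPM with PBS and 105 to 315 CPM with WGP, and Mertk, a receptor for dying cells, 126 to 199 CPM and 17.0 to 24.4 CPM. Markers of other cells moved with the groups, on the background of 15.2% higher and 15.7% lower over all genes tested. All 9 classical monocyte markers were higher after WGP, with summed levels of 2251 to 2955 CPM in PBS and 6912 to 8294 CPM in WGP libraries. Of 12 alveolar macrophage markers 11 were lower, with sums of 4927 to 7396 CPM and 1290.2 to 1610.3 CPM. Of 16 interstitial macrophage markers 2 were higher, 4 were lower and 10 did not pass, with sums of 6803 to 7878 CPM and 4297 to 5585 CPM. Y-linked transcripts summed to 112, 179 and 9.79 CPM in PBS replicates 1 to 3 and to 227, 205 and 219.8 CPM in WGP replicates 1 to 3. PBS replicate 3 stood far below the other libraries. Every PBS library was also below every WGP library, so the Y-linked level and the treatment cannot be fully told apart. In a sorted bulk sample fewer cells of a type and less RNA per cell cannot be told apart, and the part of these differences in the results was not tested.

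**Figure D1:**
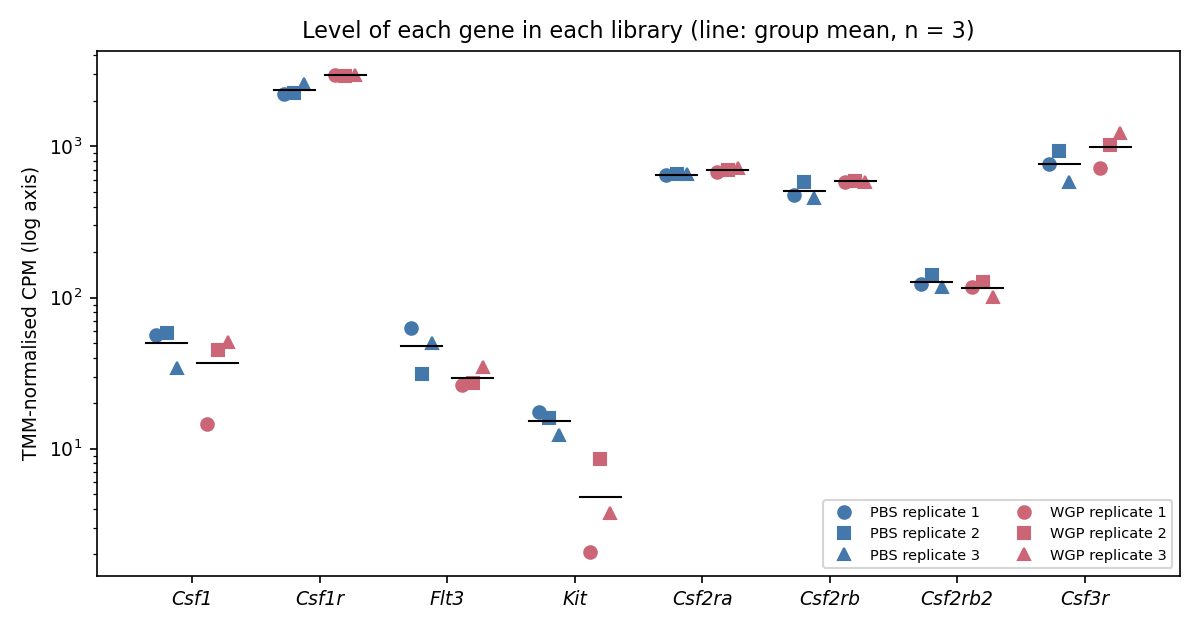
Level of each of the 8 genes in each library, in TMM-normalised CPM on a log axis, with lines at the group means (3 libraries each). Csf1r was the highest gene in every library, the groups are apart for Csf1r, Csf2ra, Csf2rb and Kit, and WGP replicate 1 is lowest for Csf1 and Kit.

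Csf1 (ENSMUSG00000014599, minus strand, chr3:107741048-107760469) encodes the growth factor that macrophages depend on, which is made mainly by fibroblasts, endothelial cells and other stromal cells. It measured 56.5, 58.5 and 34.2 CPM in PBS replicates 1 to 3 and 14.5, 45.1 and 50.9 CPM in WGP replicates 1 to 3. The groups overlapped, and WGP replicate 1 lay far below the other 5 libraries. The mean was 49.7 ± 13.5 CPM with PBS and 36.8 ± 19.5 CPM with WGP (SD, n = 3 each), a log2 fold change of -0.43 ± 0.54 (SE, edgeR adjusted p = 0.6). Without WGP replicate 1 the value was -0.05 (adjusted p = 0.9), so its size rests on that library.

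Fibroblast and smooth muscle markers summed to 93.2, 132 and 130.2 CPM in PBS libraries and to 19.4, 58.9 and 73.8 CPM in WGP libraries 1 to 3. Of the 8 such markers tested, 2 were lower after WGP and 6 did not pass. WGP replicate 1 was lowest in both Csf1 and these markers. PBS replicate 3 was lowest of its group in Csf1 but not in these markers. WGP replicate 1 was also lowest in the epithelial (14.6 CPM), dendritic cell (91.8 CPM) and T and NK cell (9.99 CPM) sums. It was not lowest in the interstitial macrophage, neutrophil or progenitor sums. Endothelial markers summed to 304, 331 and 306 CPM in PBS libraries and to 95.5, 114 and 110.2 CPM in WGP libraries 1 to 3. The markers' part in the Csf1 values was not tested.

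The other ligands of these receptors were near or below the limit of detection, apart from Kitl and Flt3l. Kitl, which encodes the KIT ligand (stem cell factor), measured 12.7 to 13.4 CPM in the PBS libraries and 5.89, 5.17 and 3.67 CPM in the WGP libraries. Every WGP library was below every PBS library, and the fall to a mean of 4.91 ± 1.14 CPM passed the test (log2 fold change -1.40 ± 0.22, edgeR adjusted p = 0.00091). Endothelial markers fell in 6 of 8 cases, where 15.7% of all genes tested were lower. Their sums were 304 to 331 CPM with PBS and 95.5 to 114 CPM with WGP. The part of these markers in the Kitl value was not tested.

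Flt3l, the ligand of FLT3, measured 6.17, 7.16 and 9.93 CPM with PBS and 16.2, 9.98 and 11.2 CPM with WGP. The lowest WGP library was just above the highest PBS library, and the difference did not pass (0.68 ± 0.25, edgeR adjusted p = 0.058). Without PBS replicate 3 it was 0.90 (adjusted p = 0.031), and without WGP replicate 2 it was 0.82 (0.04). Il34, which encodes the alternative CSF1R ligand, had 6, 25 and 0 counts with PBS and 0, 1 and 0 with WGP. Csf2, the gene of GM-CSF, had 4 counts in WGP replicate 2 and 0 in the other libraries, and Csf3, the gene of G-CSF, had between 0 and 16. Il3 and Il5 had 0 counts in all 6 libraries. At 95% confidence, 0 counts in a library allow an expected count of up to 3. None of these 5 genes had enough counts to be tested.

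Csf1r (ENSMUSG00000024621, plus strand, chr18:61100598-61132149) encodes the receptor for CSF-1 and IL-34, the defining growth factor receptor of macrophages and monocytes. It measured 2228, 2256 and 2586 CPM in PBS replicates 1 to 3 and 2965, 2942 and 2988 CPM in the WGP replicates. Every WGP library was above every PBS library, as it was for 23.2% of all genes tested. The WGP libraries lay close together, and PBS replicate 3 was the highest of its group. The mean rose from 2357 ± 199 to 2965 ± 23.2 CPM (SD, n = 3 each), which is 1.26-fold, or 0.33 ± 0.08 on the log2 scale (edgeR adjusted p = 0.0071). Csf1r passed under each of the 17 alternative settings, with log2 fold changes of 0.23 to 0.43 and adjusted p of 0.00012 to 0.045. Without PBS replicate 3 it was 0.40 (adjusted p = 0.0011). Several cell types that express Csf1r may be in the sort, and their markers did not move together. The classical monocyte markers rose in all 9 cases. Nonclassical monocyte markers had overlapping sums, 6871 to 8291 CPM with PBS and 6214 to 7945 CPM with WGP. Of the 16 interstitial macrophage markers 2 were higher and 4 lower, and of the 12 alveolar macrophage markers 11 were lower. The part of these cell types in the Csf1r value was not tested.

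An exon of Csf1r overlaps an exon of Hmgxb3, which measured 36.3 ± 2.36 CPM with PBS and 39.7 ± 1.88 CPM with WGP (0.13 ± 0.10, edgeR adjusted p = 0.35). Whether counting used the strand is not stated, but the Hmgxb3 level was small beside that of Csf1r. Pdgfrb, a related receptor tyrosine kinase of fibroblasts and pericytes that lies 15.5 kb from Csf1r, measured 7.55 ± 1.19 CPM with PBS and 4.67 ± 0.606 CPM with WGP and did not pass (-0.69 ± 0.25, adjusted p = 0.056). Csf1r counts per Csf1 count were 39.5, 38.6 and 75.7 with PBS and 204, 65.2 and 58.7 with WGP, and these ranges overlapped.

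Flt3 (ENSMUSG00000042817, minus strand, chr5:147330741-147400489) encodes the receptor of FLT3 ligand, which acts on dendritic cells and blood cell precursors. It measured 62.9, 31.0 and 50.4 CPM in PBS replicates 1 to 3 and 26.4, 27.4 and 34.5 CPM in WGP replicates 1 to 3. PBS replicate 2 fell within the WGP range, and the other 2 PBS libraries were above it. The means were 48.1 ± 16.1 and 29.4 ± 4.39 CPM, and the log2 fold change of -0.71 ± 0.26 did not pass (edgeR adjusted p = 0.086). Flt3 passed with DESeq2 (adjusted p = 0.0084, where 28.9% of all genes passed), without robust estimation (0.045, 31.0% of all genes) and without PBS replicate 2 (-0.95, adjusted p = 0.0018, 23.6% of all genes).

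Dendritic cell markers summed to 350.2, 295 and 348 CPM in the PBS libraries and to 91.8, 151 and 143 CPM in the WGP libraries. Most of each sum came from Cd209a and Ccl22, so the fall of the sum is largely that of these genes. Cd209a measured 137 to 157 CPM with PBS and 42.8 to 58.9 CPM with WGP. Ccl22 measured 90.3 to 120.5 CPM with PBS and 17.5 to 37.5 CPM with WGP. Only Batf3 had a positive log2 fold change among these markers, and it did not pass (0.37 ± 0.18, edgeR adjusted p = 0.15). Of 9 such markers 4 were lower after WGP, 5 did not pass and none was higher. Their defining genes were low but present in every library: Zbtb46, a dendritic cell transcription factor, measured 9.60 to 15.2 CPM with PBS and 5.44 to 7.44 CPM with WGP, and Xcr1, a chemokine receptor of cross-presenting dendritic cells, 0.675 to 2.61 CPM and 0.954 to 1.32 CPM. PBS replicate 2 was lowest of its group in Flt3 and in the summed dendritic cell markers. It was also lowest of its group in the progenitor (18.1 CPM), T and NK cell (47.8 CPM), B cell (45.5 CPM) and interstitial macrophage (6803 CPM) sums. It was highest of its group in the neutrophil and endothelial sums. The part of the markers in the Flt3 values was not tested.

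Kit (ENSMUSG00000005672, plus strand, chr5:75574916-75656722) encodes the receptor of stem cell factor. It had 359, 307 and 258 counts in PBS replicates 1 to 3 and 37, 163 and 69 counts in WGP replicates 1 to 3, or 17.4, 15.9 and 12.3 CPM against 2.08, 8.61 and 3.78 CPM. Every WGP library was below every PBS library, as it was for 24.9% of all genes tested, and WGP replicate 2 was the highest of its group. The mean fell from 15.2 ± 2.67 to 4.82 ± 3.39 CPM (SD, n = 3 each), a fold of 0.32 (log2 fold change -1.65 ± 0.48, edgeR adjusted p = 0.039). Kit no longer passed when any of 4 libraries was left out, with an adjusted p of 0.11 for PBS replicate 1, 0.1 for PBS replicate 2, 0.07 for PBS replicate 3 and 0.13 for WGP replicate 3. It also did not pass with a Y-linked covariate (0.096) or with no filter on low counts (0.073). Without WGP replicate 2 the log2 fold change was -2.37, and without WGP replicate 1 it was -1.29.

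The markers of cells known for KIT were looked at beside it. Of 10 mast cell and basophil markers 3 were tested, of which Gata2 was lower and 2 did not pass, and the summed levels overlapped at 140.3 to 391 CPM with PBS and 104 to 262 CPM with WGP. The mast cell genes Mcpt4 and Fcer1a had 0 counts in all libraries, Cpa3 had 1, 12 and 4 counts with PBS and 7, 0 and 0 with WGP, and the basophil gene Mcpt8 had 14, 8 and 3 against 4, 0 and 0. Most of the sum was Hdc, the histidine decarboxylase gene, with 2739 to 7307 counts in PBS and 1793 to 4695 counts in WGP libraries. In each group the libraries stood in the same order in Hdc CPM as in the summed neutrophil markers given below. Gata2, a transcription factor gene of these cells, had 208, 181 and 173 counts with PBS and 34, 35 and 81 with WGP. The part of these markers in the Kit value was not tested.

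Progenitor cell markers summed to 27.9, 18.1 and 33.8 CPM with PBS and 17.8, 14.1 and 19.5 CPM with WGP, where 1 of 6 tested was lower (Cd34) and 5 did not pass. Of their defining genes, Cd34, a surface protein of precursors and of endothelium, fell from 8.96 ± 2.41 to 4.30 ± 1.45 CPM (-1.06 ± 0.31, edgeR adjusted p = 0.026), and Mpo measured 0.156 to 3.14 CPM and 0.158 to 0.842 CPM. Hoxa9 was at 0 in all libraries. Endothelial markers, 6 of 8 of them lower, and alveolar macrophage markers, 11 of 12 lower, fell in the same libraries as Kit, and their part in it was not tested.

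The neighbours of Kit on chromosome 5 are receptor tyrosine kinase genes too. Pdgfra, a fibroblast receptor gene 377 kb from Kit, had 163, 132 and 194 counts with PBS and 0, 24 and 39 with WGP, and did not pass (-2.81 ± 0.90, edgeR adjusted p = 0.061). Kdr, the main VEGF receptor gene of endothelium 276 kb to the other side, measured 16.0 ± 5.99 and 9.34 ± 4.34 CPM and did not pass (-0.78 ± 0.41, adjusted p = 0.21).

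**Figure D2:**
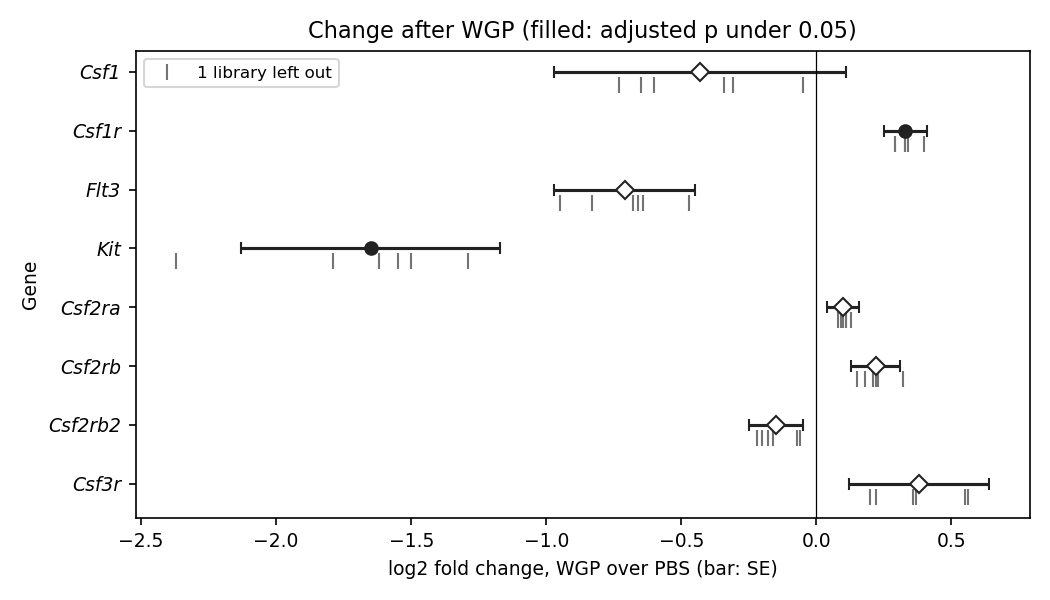
Log2 fold change of WGP over PBS for each of the 8 genes with its SE as the bar, filled where the adjusted p was under 0.05, and ticks for the value with 1 library left out. The ticks for Csf1r lie between 0.29 and 0.40, those for Kit between -2.37 and -1.29, and those for Csf1 between -0.73 and -0.05.

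Csf2ra (ENSMUSG00000059326, minus strand, chr19:61223957-61228429) encodes the alpha chain that gives the GM-CSF receptor its specificity. It measured 643, 654 and 658 CPM in PBS libraries and 679, 698 and 723 CPM in WGP libraries. The WGP libraries were all above the PBS libraries, by little. The mean of 651 ± 7.86 CPM against 699.9 ± 22.4 CPM gave a log2 fold change of 0.10 ± 0.06, which did not pass (edgeR adjusted p = 0.25). It did not pass in any of the 17 alternatives, where it was 0.00 to 0.14, with 0.00 when only library sizes were used for scaling.

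Csf2rb, whose product is the common beta chain, measured 477, 579 and 456 CPM in PBS replicates 1 to 3 and 586, 595 and 579 CPM in the WGP replicates. The lowest WGP library was just above PBS replicate 2, and the other 2 PBS libraries were lower. The mean was 504 ± 65.7 CPM with PBS and 587 ± 7.72 CPM with WGP (0.22 ± 0.09, edgeR adjusted p = 0.09). Without PBS replicate 2 it was 0.32 and passed (adjusted p = 0.012). Counting Csf1r, Csf2ra and Csf2rb together with Kit, the groups did not overlap for 4 of the 8 genes, where 48.1% of all genes tested had groups that did not overlap.

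Csf2rb2, whose product serves IL-3 alone, measured 123, 142 and 118 CPM in PBS libraries and 117, 127 and 101 CPM in WGP libraries. The groups overlapped, with means of 128 ± 12.4 and 115 ± 13.2 CPM (-0.15 ± 0.10, edgeR adjusted p = 0.29). As a share of the counts of both beta chain genes, Csf2rb2 made up 20.5%, 19.7% and 20.6% with PBS and 16.7%, 17.6% and 14.8% with WGP. These ranges did not overlap, with means of 20.2% ± 0.503 and 16.4% ± 1.41 (SD, n = 3 each). An exact permutation test of 3 libraries against 3 has a smallest two-sided p of 0.1, and none was run on the share. The share compares genes of the same library, so it does not depend on scaling, but it does depend on how reads of identical stretches were assigned.

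Il3ra, the IL-3 alpha chain gene, measured 24.9, 21.8 and 32.7 CPM with PBS and 36.5, 33.5 and 33.8 CPM with WGP (0.39 ± 0.15, edgeR adjusted p = 0.07), and did not pass although the groups did not overlap. Without PBS replicate 3 it was 0.57 and passed (adjusted p = 0.01). Il5ra, the IL-5 alpha chain gene, had 0 to 22 counts and was not tested. The number of Csf2ra counts per Csf2rb count was 1.35, 1.13 and 1.44 with PBS and 1.16, 1.17 and 1.25 with WGP, which overlapped. Csf1r counts per Csf2ra count were 3.47, 3.45 and 3.93 with PBS and 4.37, 4.22 and 4.13 with WGP, so every WGP library had more Csf1r per GM-CSF receptor alpha chain than every PBS library.

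Csf3r (ENSMUSG00000028859, plus strand, chr4:126024550-126044440) encodes the G-CSF receptor, whose main role is in neutrophils, though monocytes carry it too. It measured 759.9, 939 and 583 CPM in PBS replicates 1 to 3 and 725, 1022 and 1221 CPM in WGP replicates 1 to 3. The spread within each group was wide and the groups overlapped. The means were 761 ± 178 and 989 ± 249.6 CPM (0.38 ± 0.26, edgeR adjusted p = 0.34). Csf3r did not pass with any single library left out, where it ran from 0.20 without WGP replicate 3 (adjusted p = 0.62) and 0.22 without PBS replicate 3 (0.61) to 0.55 without PBS replicate 2 (0.2) and 0.56 without WGP replicate 1 (0.096). With a Y-linked covariate it was 0.13 (adjusted p = 0.78). It passed in 1 of the 17 alternatives: with PBS replicate 3 and WGP replicate 1 left out together, a setting chosen after seeing the data, it was 0.41 (adjusted p = 0.04, where 26.0% of all genes passed).

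Neutrophil markers summed to 1327, 1869 and 686 CPM in PBS replicates 1 to 3 and 877, 1398 and 1911 CPM in WGP replicates 1 to 3. In each group the libraries stood in the same order in Csf3r and in these markers. That order was not particular to neutrophil markers. It also held for the mast cell and basophil sums and for the epithelial sums. The latter were 346, 568 and 268 CPM in PBS replicates 1 to 3 and 14.6, 51.2 and 59.9 CPM in WGP replicates 1 to 3. Of 10 markers 1 was higher after WGP (Mmp8) and 9 did not pass. The defining gene S100a8 measured 119.9 to 407 CPM with PBS and 147 to 388 CPM with WGP, and Ly6g 1.14 to 3.27 CPM and 1.58 to 3.28 CPM, so neither was at 0. The part of these markers in the Csf3r values was not tested.

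**Figure D3:**
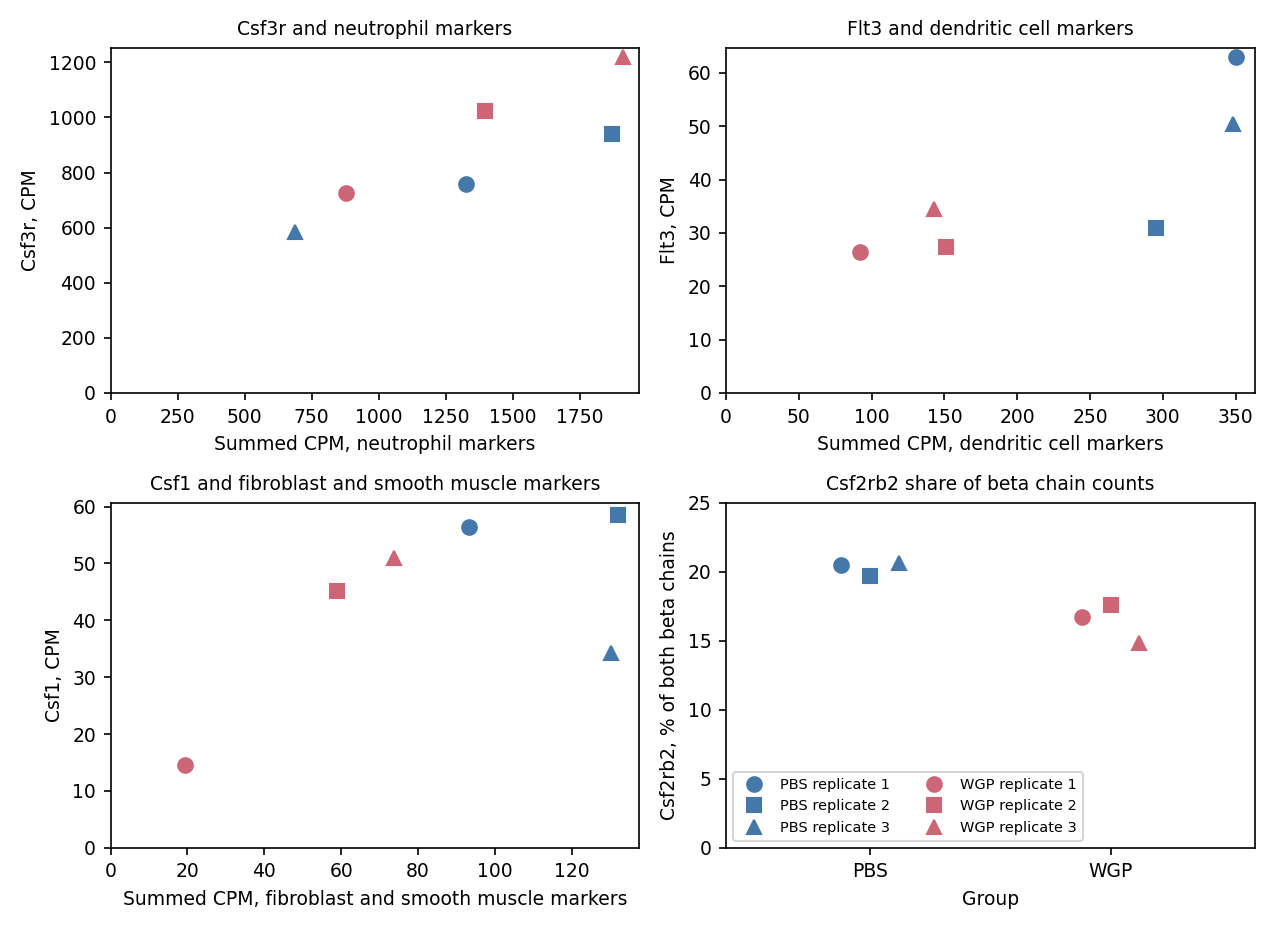
Csf3r, Flt3 and Csf1 in CPM against the summed CPM of neutrophil, dendritic cell, and fibroblast and smooth muscle markers, 1 point per library, and the share of Csf2rb2 in the counts of both beta chain genes by group. Csf3r and the neutrophil sum are both lowest in PBS replicate 3. Csf1 and the fibroblast sum are both lowest in WGP replicate 1, as are several marker sums not shown here. The Csf2rb2 share is 19.7% to 20.6% with PBS and 14.8% to 17.6% with WGP.

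Levels of different genes were compared as CPM per kilobase of all annotated exons. In PBS libraries the order was Csf1r with 408 ± 34.4, Csf2ra with 227 ± 2.74, Csf3r with 211 ± 49.4, Csf2rb with 69.3 ± 9.03, Csf2rb2 with 26.9 ± 2.63, Csf1 with 9.41 ± 2.56, Flt3 with 7.79 ± 2.60 and Kit with 1.71 ± 0.299 (SD, n = 3). The ranges of the neighbours Csf2ra and Csf3r overlapped, as did those of Csf1 and Flt3, and all other neighbours were apart. In WGP libraries the level per kilobase was 514 ± 4.01 for Csf1r, 274 ± 69.2 for Csf3r, 244 ± 7.79 for Csf2ra, 80.6 ± 1.06 for Csf2rb, 24.3 ± 2.79 for Csf2rb2, 6.98 ± 3.70 for Csf1, 4.77 ± 0.710 for Flt3 and 0.541 ± 0.380 for Kit, with overlap in the same neighbours. With the length of the longest coding transcript in place of all exons, Flt3 was above Csf1 in PBS libraries, at 13.2 against 11.9 CPM per kilobase. By that length Csf2ra was above Csf3r without overlap in both groups. The ranges were 348 to 356 against 167 to 269.8 with PBS, and 367 to 391 against 208 to 351 with WGP. Csf1r was therefore the most abundant of these transcripts in both groups, and the transcript of the GM-CSF receptor alpha chain was more abundant than that of either beta chain.

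Downstream of the beta chain, 10 of 17 genes of the JAK-STAT arm were higher after WGP, 2 were lower and 5 did not pass. Over all genes tested 15.2% were higher and 15.7% lower. The median log2 fold change was 0.37, against -0.02 over all genes tested. Stat5b, the transcription factor gene most closely tied to GM-CSF and IL-3 signals together with Stat5a, rose from 175 ± 7.16 to 269.6 ± 2.95 CPM (0.63 ± 0.07, edgeR adjusted p = 0.0001), and Tyk2, a Janus kinase gene, from 155 ± 7.15 to 240.0 ± 13.2 CPM (0.63 ± 0.07, adjusted p = 0.00016). Ptpn6, which encodes the phosphatase SHP-1 that dampens these receptors, rose from 549 ± 47.6 to 784 ± 65.1 CPM (0.51 ± 0.09, 0.0014). The genes of the kinases that act with the beta chain, Jak1 (0.10 ± 0.07, adjusted p = 0.3) and Jak2 (0.13 ± 0.10, 0.37), did not pass.

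The 2 genes of this arm that fell both encode feedback inhibitors that STAT5 is known to induce. Cish measured 45.3, 61.2 and 38.8 CPM with PBS and 17.9, 17.0 and 18.2 CPM with WGP (-1.45 ± 0.16, edgeR adjusted p = 0.00014), and the groups were far apart. Socs2 measured 15.4, 11.8 and 8.17 CPM with PBS and 1.23, 4.59 and 1.04 CPM with WGP (-2.35 ± 0.58, adjusted p = 0.022). Socs2 did not pass when PBS replicate 1 (adjusted p = 0.06), PBS replicate 2 (0.058) or WGP replicate 1 (0.052) was left out. Stat5a rose from 58.3 ± 2.87 to 76.6 ± 2.17 CPM (0.39 ± 0.08, edgeR adjusted p = 0.0038). Pim1, a kinase gene that STAT5 is also known to induce, rose from 726 ± 46.7 to 948 ± 70.1 CPM (0.38 ± 0.08, adjusted p = 0.0044), so genes known as STAT5 targets went both ways. The related inhibitor genes Socs1 (0.19 ± 0.44, adjusted p = 0.78) and Socs3 (-0.32 ± 0.21, 0.31) did not pass, though Socs3 did without WGP replicate 2 (-0.59, adjusted p = 0.0019).

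Of 21 genes of the tyrosine kinase arm, the adaptors and enzymes used by CSF1R, KIT and FLT3, 4 were higher after WGP, 5 were lower and 12 did not pass, with a median of 0.05. Over all genes tested 15.2% were higher and 15.7% lower, so these counts are near the background. Pik3cd, the leukocyte PI3 kinase catalytic subunit gene, rose from 392 ± 31.7 to 685 ± 71.2 CPM (0.80 ± 0.09, edgeR adjusted p = 0.00014). Plcg2, the gene of the phospholipase used by CSF1R in macrophages, rose from 507 ± 34.0 to 792 ± 28.8 CPM (0.64 ± 0.07, 0.00014). Among those that fell were Fyn, a Src family kinase gene, from 161 ± 8.47 to 108 ± 5.11 CPM (-0.57 ± 0.07, 0.0003), and Dok2, an inhibitory adaptor gene, from 64.6 ± 7.05 to 39.7 ± 4.30 CPM (-0.70 ± 0.11, 0.0011). The ubiquitin ligase genes that end such signals moved apart: Cbl rose (0.47 ± 0.08, 0.0014) and Cblb fell (-0.43 ± 0.07, 0.0012).

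Transcription factors known to act on the receptor genes also went both ways, with 3 of 11 tested higher, 3 lower and 5 not passing, and a median of -0.14, on the same background of 15.2% and 15.7%. Spi1, whose product PU.1 drives Csf1r and Csf2ra, rose from 479 ± 25.6 to 599 ± 32.7 CPM (0.32 ± 0.07, edgeR adjusted p = 0.0069). Irf8, a monocyte and dendritic cell factor gene, rose from 168 ± 26.5 to 343 ± 52.0 CPM (1.03 ± 0.14, 0.0014), and Fli1, an ETS factor gene, from 104 ± 2.17 to 160.2 ± 15.9 CPM (0.63 ± 0.08, 0.00033). Runx1, which acts on Csf1r, fell from 266 ± 45.5 to 169.5 ± 8.08 CPM (-0.65 ± 0.11, 0.0023). Gata2, a factor of mast cells and precursors, fell from 9.24 ± 0.952 to 2.73 ± 1.47 CPM (-1.76 ± 0.35, 0.0036), in the same direction as Kit, and Cebpa fell as well (-0.53 ± 0.11, 0.0045).

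Of 14 genes linked to GM-CSF in alveolar macrophages, 13 were lower after WGP, none was higher and 1, Marco, did not pass (-1.13 ± 0.43, edgeR adjusted p = 0.12). Their median was -2.01. Over all genes tested 15.2% were higher and 15.7% lower. With 1 library left out 9 to 13 of the 14 were lower, and with the Y-linked covariate 9 were. Fabp4, a fatty acid carrier gene, fell from 75.5 ± 9.41 to 21.4 ± 1.06 CPM (-1.82 ± 0.11, 9e-06), and Itgax, the gene of CD11c, from 741 ± 49.6 to 257 ± 36.5 CPM (-1.53 ± 0.11, 1.4e-05). Ear2, an eosinophil-associated ribonuclease gene expressed in alveolar macrophages, fell from 581 ± 85.5 to 250.5 ± 17.9 CPM (-1.21 ± 0.11, 5.6e-05), and Bhlhe40, a transcription factor gene, from 325 ± 39.1 to 171 ± 8.90 CPM (-0.93 ± 0.09, 7.6e-05). Of the 14 genes 11 are also on the list of alveolar macrophage markers, so these genes do not separate the GM-CSF response from the cell type.

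**Figure D4:**
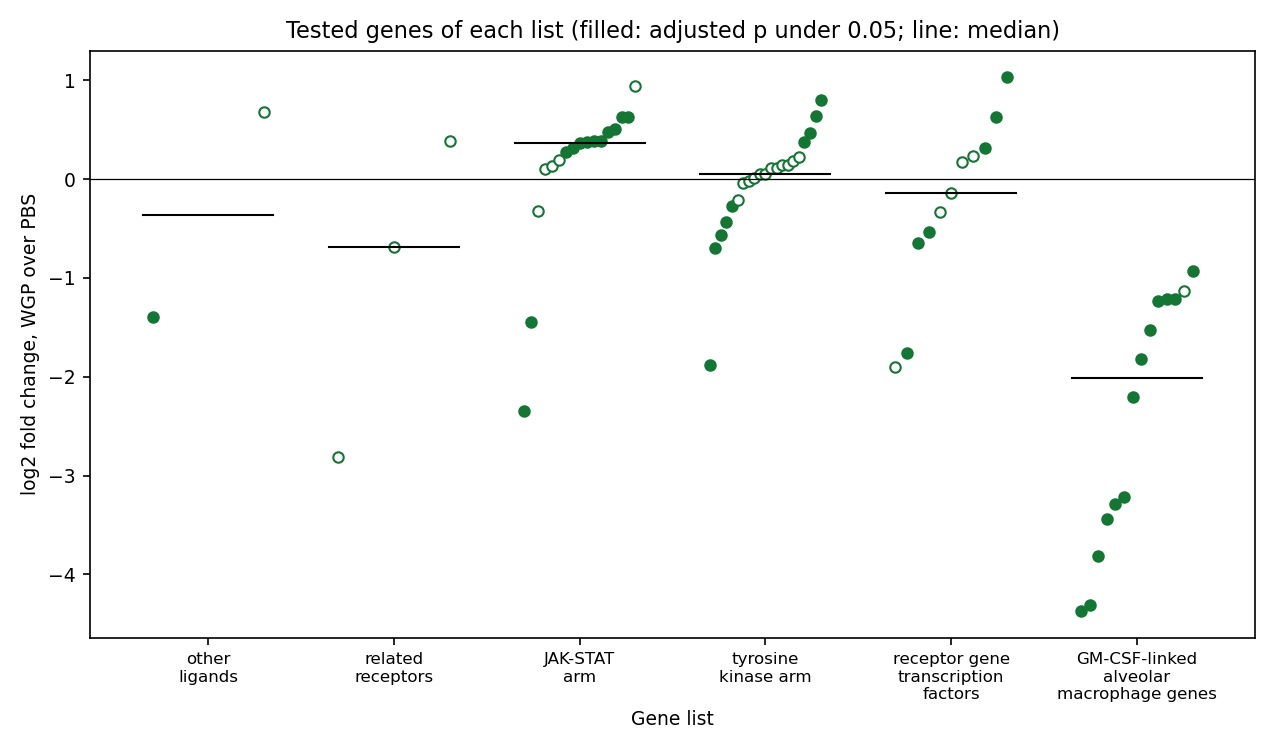
Log2 fold change of WGP over PBS for each tested gene of the 6 lists, filled where the adjusted p was under 0.05, with a line at the list's median. In the JAK-STAT arm 10 of 17 genes are filled above 0, while of the GM-CSF-linked genes 13 of 14 are filled below 0.

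The genes whose pattern over the 6 libraries was most like each of the 8 were found from the root mean square difference between log2 CPM values, each centred on the gene's own mean, over 9329 candidate genes. For Csf1r these were Rps7 (0.026), Sucla2 (0.027) and Hps5 (0.027), and for Csf2ra Stau1 (0.019), Ammecr1l (0.020) and Bnip2 (0.021). For Csf2rb they were Zbtb8os (0.030), Zbtb17 (0.031) and Tmem183a (0.032), and for Csf2rb2 Dld (0.047), Ldha (0.053) and Nprl2 (0.054). Csf3r was nearest to Zfyve28 (0.080), Trim30b (0.095) and Sntb2 (0.118). Flt3 was nearest to Lxn (0.137), Hirip3 (0.158) and Pigg (0.181), and Kit to Clec14a (0.149), Scimp (0.186) and Pkmyt1 (0.207). Csf1 had the most distant neighbours, Nudt21 (0.211), Slc7a11 (0.232) and Dab2ip (0.237). Small distances go with small spread, so they are lowest for genes that varied little, and with 6 libraries of 2 groups they are a description only.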

How the data were processed

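RNA was sequenced from sorted lung interstitial macrophages in 3 PBS and 3 WGP libraries, grouped and numbered as in the labels. The authors deposited raw read counts per Ensembl gene, made with HTSeq 0.10.0 (FastQC 0.10.1, builds GRCm38 and mm10) per the submitters' processing notes. Which aligner, annotation and strand setting served is not given in the sources used; reads of genes with overlapping exons therefore cannot be told apart. Of 21965 identifiers 21939 (99.9%) were found in GENCODE M21 (GRCm38), which gave symbols, positions, exon lengths and the printed coding sequences. Totals ran from 18254678 to 20346517 counts per library. Replicates differed by a chi-square of 13.5 to 24.8 per degree of freedom, so none was a repeat sequencing run of another library. This does not exclude separate libraries made from the same RNA.

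The groups were compared by the two-sided robust quasi-likelihood F test of edgeR 4.0.16 (R 4.3.3) on genes kept by filterByExpr with TMM scaling. P-values were adjusted by the Benjamini-Hochberg method over 12305 genes, with a threshold of 0.05, and the code was first tested on simulated data. The biological coefficient of variation was 0.18, and SEs are the absolute log2 fold change over the root of F. Alternatives were other scalings and filters, DESeq2 1.42.0, limma-voom (limma 3.58.1), no robust estimation, each library left out, a replicate block and the Y-linked level as a covariate.

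The 8 genes, the pathway and marker lists and the tests were chosen with earlier results of these data known. From each pathway list up to 4 genes that passed were named by smallest p, and every gene of the lists of other ligands and related receptors. Genes most like a member had a mean of at least 5 CPM and a prior count of 2. Named outside this rule, after their values were seen, were Jak1, Jak2, Stat5a, Socs1, Socs2, Socs3, Pim1, Cbl, Cblb, Spi1, Cebpa and Marco. So were Kdr, Hmgxb3, Hdc, Fcer1a, Hoxa9, Mmp8, Cd209a, Ccl22 and Batf3. Markers of T and NK cells (2 of 8 lower, 6 not passing), B cells (0 of 5 passing), eosinophils (0 of 1 tested passing), nonclassical monocytes (1 of 7 higher, 6 not passing) and epithelium (6 of 7 tested lower, 1 not passing) were also listed.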

Additional observations from a re-analysis of the deposited data

How the results depend on the processing

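Over the 8 genes, the tested genes of the pathway lists and the most alike genes, 1700 values under an alternative were compared with the reported ones: 1584 stayed on their side of the threshold, 69 lost the call, 47 gained it and 0 calls reversed. The genes changed numbered 3809, and 2491 to 3717 with 1 library left out, lowest without PBS replicate 1. Of the 8 genes 2 passed, and 1 to 3 passed with 1 library left out. With no filter on low counts 1 passed, and so did 1 with a Y-linked covariate; Kit was lost in both. The replicate numbers were not used as pairs. Deviations of same-numbered libraries correlated at -0.063, -0.081 and -0.046, and no library correlated best with its own number. With 3 libraries per group this cannot exclude that samples were handled in matched sets. With the replicate block 3185 genes and 2 of the 8 passed (Csf1r edgeR adjusted p = 0.01, Kit 0.035). Scaling moved the median log2 fold change of all genes from -0.02 to -0.08 (upper quartile) and -0.12 (library sizes alone), and the share of calls that were higher from 49.2% to 40.0% and 33.4%.

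Among the lists, 1 other ligand (Flt3l) passed higher, against 0, with no filter and with the Y-linked covariate, and 0 to 1 with a library left out. Of the related receptors 1 passed higher, against 0, with the covariate and with PBS replicate 3 and WGP replicate 1 left out together (a setting chosen after seeing the data), and 1 passed lower, against 0, with upper quartile scaling, library sizes alone, limma-voom, no robust estimation and that joint setting, and 0 to 1 in each direction with a library left out. The JAK-STAT arm had 1 lower gene in place of 2 in the joint setting and 1 to 3 with a library left out (3 without WGP replicate 2, where Socs3 passed), and the tyrosine kinase arm 3 in place of 5 in the joint setting. In the JAK-STAT arm 7 to 10 genes were higher, against 10, with a library left out. Of the GM-CSF-linked genes 9 to 13 were lower, against 13, with a library left out. They numbered 9 with the Y-linked covariate, 10 with the replicate block, 11 with no filter and 12 in the joint setting. With DESeq2, limma-voom or no robust estimation they numbered 14. The causes were not tested. With 37 to 163 counts in WGP libraries, Kit is the gene whose value depth limits most. A gene with 0 counts in a library can have an expected count of up to 3 there, at 95% confidence.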
